A study of Mus musculus with 33 samples.

Results

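The wild-type livers of the series were described on their own: 7 of its 33 array columns, those titled wt that carry the first of 2 normalization runs, were chosen by title. Each column held 1 liver of a 12-month-old wildtype mouse whose mixed background joined the strains FVB/NT, 129S1/Svlmj and C57BL/6NT, hybridised as biotinylated RNA to an Affymetrix mouse array. The labels record no treatment, sex, litter or batch for these mice, and how much of each strain a mouse carried was not given. The values were log2 signals of 45101 probe sets, and 1 probe set per gene, the brightest on average, gave 18193 genes. The questions were which genes had the highest signal in normal liver at this age, which were most constant or most variable between livers, and which varied together. No other group of the series was compared.

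The liver makes most of the proteins of blood plasma, runs the urea cycle, and builds fatty acids, cholesterol and bile acids. Hepatocytes, its main cell type, adjust many of these pathways to feeding, to time of day and to inflammation: sterol and fatty acid genes follow the SREBP transcription factors, acute phase genes follow interleukin-6 and glucocorticoids, and clock genes follow an internal oscillator of activators and repressors. In mice a further set of liver genes differs between males and females through growth hormone. Kupffer cells, endothelial cells and stellate cells make up most of the rest of the organ.

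The 7 livers were alike over all genes, with Pearson correlations of 0.981 to 0.994 between livers across genes, and array medians of 5.48 to 5.53 log2 units. They stood apart from each other in 2 features that bear on the results. Xist, the non-coding RNA of the inactive X chromosome, had 12.64, 12.83 and 13.11 log2 units in wt 2, wt 3 and wt 6, and 6.96, 6.57, 6.54 and 7.37 in wt 1, wt 4, wt 5 and wt 7. The Y-linked genes ran the other way: Eif2s3y lay at 2.49 to 3.66 in the 3 livers with high Xist and at 7.38 to 8.07 in the 4 with low Xist, and Kdm5d and Uty also split in this direction. Because the labels give no sex, the livers are called high-Xist and low-Xist here. Separately, 24 array control probe sets for Bacillus transcripts, which are added to samples rather than made by the mouse, had medians of 13.25 and 13.11 in wt 6 and wt 7, against 2.71 to 2.87 in the other 5 livers. In the same pair of livers the 18S ribosomal control was lower, at 7.39 and 6.71 against 8.002 to 8.35, and the excess of 3' over 5' signal for Actb was smaller, at 0.87 and 0.63 against 1.14 to 1.38. One of these livers was high-Xist and the other low-Xist, so both features cross. No label names a batch, and the part of these array differences in the results was not tested beyond giving values without wt 6 and wt 7.

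The highest signals belonged to secreted plasma proteins. Of the 20 brightest genes, 14 were on the list of plasma proteins, apolipoproteins and the fatty acid binding protein Fabp1. Alb, the carrier protein albumin, came first at 14.94 ± 0.03 log2 units (SD, n = 7), then Apoa2 at 14.92 ± 0.05 and Apoe at 14.79 ± 0.07, both apolipoproteins. Serpina1b, an alpha-1-antitrypsin, followed at 14.70 ± 0.04, Apoa1, the main protein of high-density lipoprotein, at 14.70 ± 0.19, and Ttr, the thyroxine and retinol-binding protein carrier, at 14.64 ± 0.06. The next places went to Hpx (hemopexin), Serpina1c, Fabp1, Hp (haptoglobin), Ahsg, Fgb (fibrinogen beta chain), Pzp, Selenop, Fgg, Apoc3, Scp2, Gpx1, Apoc1 and Rbp4, with means from 14.58 for Hpx to 14.20 for Rbp4. Itih4, just outside, also had 14.20, so the end of the ranking is not a gap. Serpina1b and Serpina1c are near-identical copies, and their probes may share transcripts. Signal orders probe sets, not transcripts: it depends on how strongly each probe set binds, and the brightest lie near the top of the scale, where differences are compressed. All 31 measured plasma protein genes and all 10 hepatocyte markers lay among the brightest 5.00% of genes, with means above 10.997, so the defining markers of liver were present.

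The range of a gene from its lowest to its highest liver was usually small. Among the 9096 genes with means above 6.49, called the brighter genes here, the median SD was 0.19 log2 units, and the 5th and 95th percentiles were 0.08 and 0.59. A range of at least 1 log2 unit, a 2-fold difference between the extreme livers, was seen in 1319 of these genes, or 14.5%. It was seen in 10.0% without wt 6 and wt 7 and in 7.45% among the 4 low-Xist livers. Over all 18193 genes the share was 10.0%. At least a 4-fold range was seen in 282 of the brighter genes and at least an 8-fold range in 114. Some lists are also described by the livers where their members were highest or lowest. Shares of this kind over all brighter genes were not computed.

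**Figure D1:**
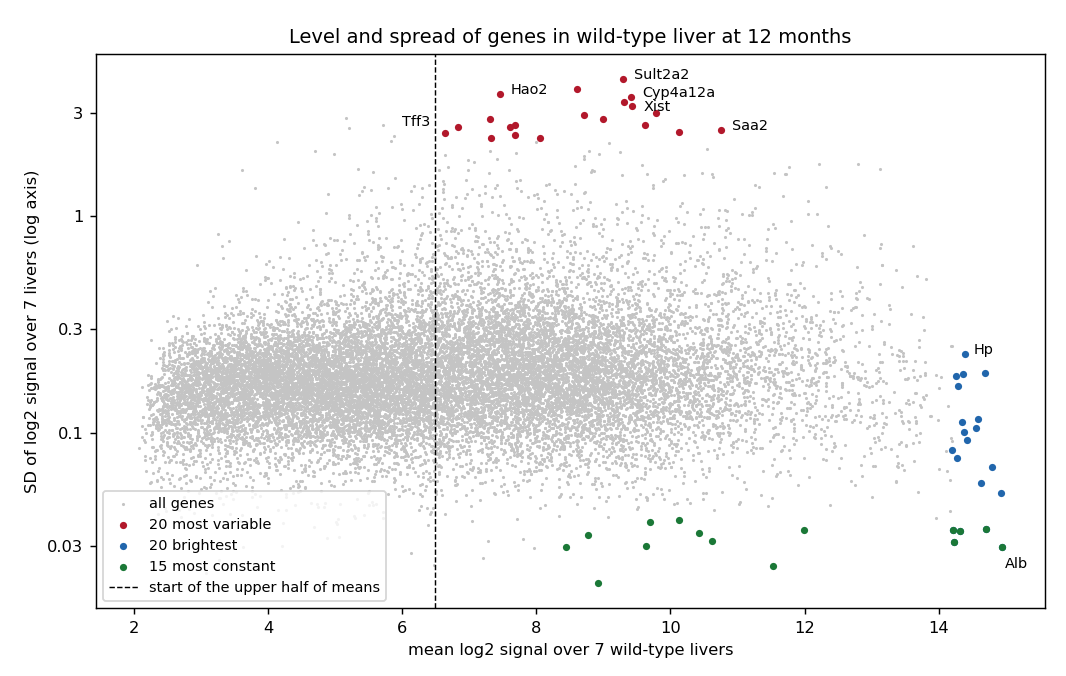
Mean log2 signal (x) and SD over the 7 wild-type livers (y, log axis) for 18193 genes, 1 point per gene; red, blue and green mark the most variable, brightest and most constant genes, and the dashed line is where the brighter 9096 genes start. Genes that are both brightest and most constant are green. The 20 most variable genes lie above an SD of 2.2, more than 10 times the median SD of 0.19.

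The most constant genes had mixed functions. Sbno1, a helicase-family nuclear protein, ran from 8.89 to 8.95 log2 units (SD 0.020), and Ywhab, a 14-3-3 adaptor protein, from 11.49 to 11.56 (SD 0.024). Mknk1, a kinase that acts on translation initiation factor 4E, had an SD of 0.030. The others were Alb, Trappc3 (vesicle transport), Gpx1 (glutathione peroxidase), Tmem126a, Cops8 (COP9 signalosome), Mrps16 (mitochondrial ribosome), Selenop, Apoc1, Adh5, Serpina1b, Abhd12 and Ube2v1, the last with an SD of 0.039. Serpinc1, just outside, had 0.041. Of these 15 genes, 5 were also among the 20 brightest, where the scale compresses differences. The order was not stable, since 8 of the 15 were also among the most constant in the second normalization run of the same arrays and 6 without wt 6 and wt 7.

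Whole groups of housekeeping genes were steady. None of 33 respiratory chain subunits, 31 proteasome subunits or 23 ribosomal protein genes had a 2-fold range, against 14.5% of the brighter genes. Ribosomal protein genes, with SDs of 0.11 to 0.26, nevertheless moved in step, with a median correlation of 0.84 over pairs of members, where pairs of brighter genes in general had a median of 0.03. Such a correlation is a description over the same 7 arrays, and scaling of an array moves all its genes together. Of the proteasome genes, 18 of 31 were lower in both wt 6 and wt 7 than in every other liver, where 16.5% of the brighter genes were and 7.61% were higher in both. Plasma protein genes had a 2-fold range in 3 of 31 members, and urea cycle and amino acid genes in 2 of 25.

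The 3 plasma protein exceptions were Apob, Serpina6 and Apoa4. Apob, the structural protein of very-low-density lipoprotein, had 11.83 and 11.41 in wt 6 and wt 7, against 12.62 to 13.19 in the other livers, so that its 2-fold range came from these arrays. Apoa4 was lowest in wt 7 (11.33) and highest in wt 3 (13.14), and Serpina6, the corticosteroid-binding globulin, was lowest in wt 4 (11.73) and highest in wt 6 (13.36). Tat, the tyrosine aminotransferase, was lowest in wt 1 at 12.06, with 12.90 to 13.40 in the others, and Oat, the ornithine aminotransferase, ranged from 11.07 in wt 7 to 13.04 in wt 2. Both were the exceptions of the amino acid list.

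Genes often used as references in quantitative PCR were of unequal constancy. B2m had an SD of 0.04 and Eef1a1 of 0.07, whereas Actb had 0.33, from 12.65 in wt 3 to 13.58 in wt 7. Polr2a, the largest subunit of RNA polymerase II, had 0.38, from 8.49 in wt 3 and wt 5 to 9.41 in wt 7. Tfrc, the transferrin receptor, was the only one of 15 with a 2-fold range, where 14.5% of the brighter genes had one. It had 10.13 in wt 6 and 9.41 in wt 7, against 8.36 to 8.85 in the other 5. Its SD was 0.63, or 0.20 without wt 6 and wt 7.

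The most variable genes of all followed Xist. Of the 20 with the largest SD among the brighter genes, 12 were higher in each high-Xist liver than in any low-Xist liver, 6 were lower in each, and 2 overlapped. Over all brighter genes these patterns held for 6.19% and 7.50%, and with a gap of at least 1 log2 unit for 0.396% and 0.253%. The 20 were picked by their spread. Some, such as Hao2, were among the brighter genes only through the livers where they were high. The counts therefore describe the ranking and are not a test. Sult2a2, a steroid sulfotransferase, was highest in spread: 13.79, 13.73 and 13.71 in wt 2, wt 3 and wt 6, against 4.63 to 7.38 in the low-Xist livers (SD 4.28). Its transcripts resemble those of other Sult2a genes, which the probes may not separate. Sult3a1, another sulfotransferase, had 11.69 to 13.13 in high-Xist and 4.51 to 6.85 in low-Xist livers. Hao2, a peroxisomal hydroxyacid oxidase, had 11.05 to 11.56 and 4.10 to 5.38. Both genes thus went between the bright and the dim part of the scale.

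Most genes known for higher expression in female mouse liver behaved alike. Of 13 measured genes, 12 were higher in every high-Xist liver, and Cux2, a transcription factor of that group, overlapped at 8.25 to 8.56. Higher signal in every high-Xist liver was seen in 6.19% of the brighter genes. The share over all genes, dim ones included, was not computed. Of the 13, 11 were among the brighter genes. Some were so only through the livers where they were high, such as Cyp3a44, with 8.39 to 8.91 in high-Xist and 4.62 to 5.47 in low-Xist livers, so the count among brighter genes is not read further. The 12 included the cytochrome P450 genes Cyp2b9, Cyp2b13, Cyp3a44 and Cyp17a1, the peroxisomal thioesterase Acot3 and the peroxisomal transporter Abcd2. Cyp2b13 had 11.44 to 12.29 in high-Xist and 6.40 to 7.22 in low-Xist livers, although Cyp2b9 and Cyp2b13 are close copies. Cyp17a1, a steroid hydroxylase, spread even within the high-Xist livers, from 8.94 in wt 3 to 11.93 in wt 6, with 6.03 to 6.57 in the low-Xist ones. Outside the list, the organic anion transporters Slc22a26 and Slc22a27, the glucuronosyltransferase Ugt2b37 and the calcineurin regulator Rcan2 were among the 20 and shared this direction.

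Genes known for higher expression in male mouse liver ran the other way. Of 10 measured, 8 were higher in every low-Xist liver. Among the brighter genes 7.50% were, and the share over all genes was not computed. Nudt7, a peroxisomal nucleotide hydrolase, overlapped, as did Moxd1, which was dim at 3.72 to 4.20. Cyp4a12a, a fatty acid hydroxylase, had 4.73 to 6.37 in high-Xist livers and 11.65 to 12.63 in low-Xist livers (SD 3.55). Hsd3b5, a steroid dehydrogenase, had 5.16 to 6.24 and 11.50 to 12.81, and Cyp2d9, a testosterone hydroxylase, 6.16 to 7.07 and 11.19 to 12.68. Elovl3, a fatty acid elongase, also varied among low-Xist livers, from 9.51 in wt 7 to 12.37 in wt 5. Mup3, a major urinary protein and carrier of scent molecules, differed less, at 12.23 to 12.45 against 12.99 to 13.53. Nox4, an NADPH oxidase, and Scara5, a ferritin receptor, were outside the list but among the 20, with higher signal in low-Xist livers.

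The genes closest to Xist over the 7 livers, among 1272 other brighter genes with a 2-fold range, were Trim24, Hao2, Sult2a2, Slc22a27 and Cyp2b13. Trim24, a nuclear receptor coregulator, had 9.79 to 9.87 in high-Xist livers and 7.51 to 7.90 in low-Xist livers. No correlation is given for Xist because its values form separate clusters. When spread was taken around the mean of each Xist class, an alternative added after the values were seen, only 2 of the 20 most variable genes stayed in the ranking, Saa2 and Tff3. The 18 others then named were Dct, Lcn2, Orm2, Prtn3, Vnn1, Saa1, Hsd17b6, Mfsd2a, Mt2, Cyp4a14, Marco, Rad51b, Rgs16, Scd1, Igfbp1, Thrsp, H2-Eb1 and G0s2.

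**Figure D2:**
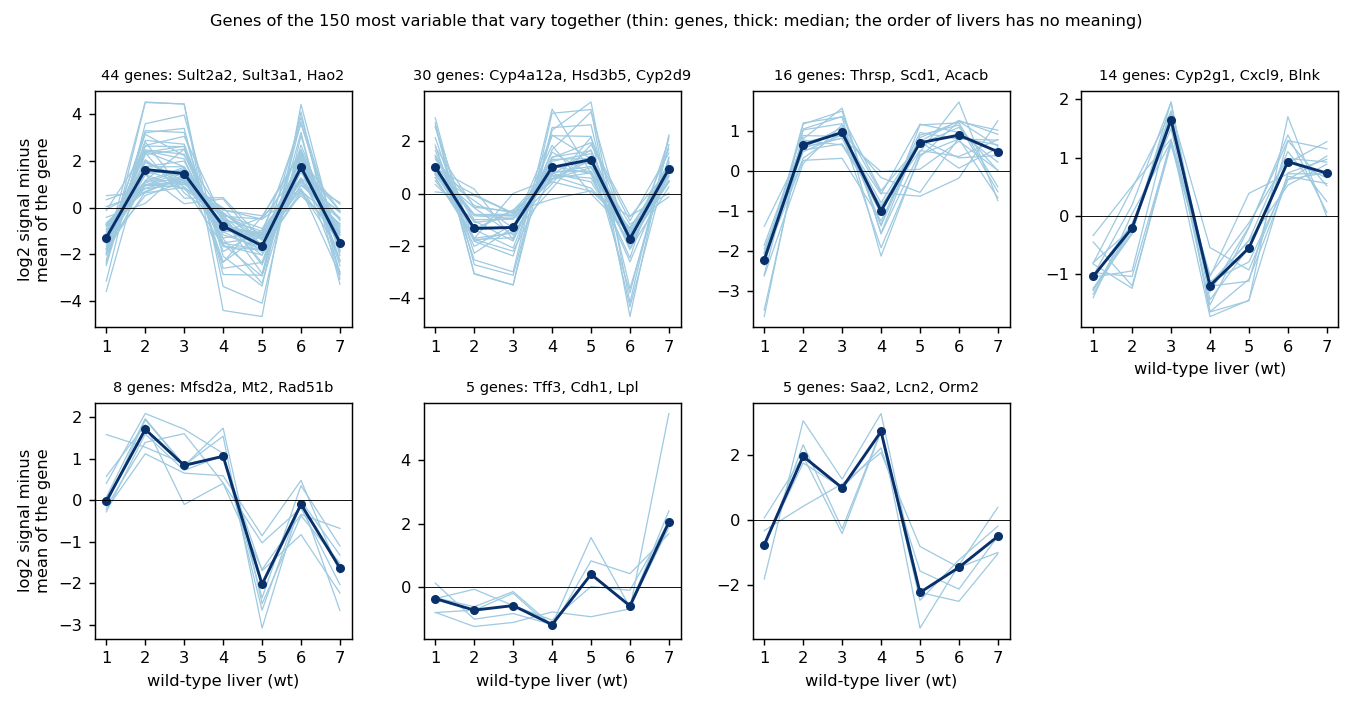
Log2 signal minus the mean of each gene (y) in wt 1 to wt 7 (x) for the 7 groups of at least 5 genes that correlation-based linkage formed among the 150 most variable brighter genes. Thin lines are genes and thick lines are group medians; the first and second panels, with 44 and 30 genes, mirror each other, and the third is lowest in wt 1.

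Average linkage on correlation, cut at 0.3, placed 122 of the 150 most variable genes in 7 groups. Agreement within a group follows from how it was made. The first group had 44 genes led by Sult2a2, of which 42 were higher in each high-Xist liver, and the second had 30 led by Cyp4a12a, all 30 higher in each low-Xist liver. Beyond the listed genes the first held the fatty acid transporter Cd36, the drug-metabolising Cyp2b10, the efflux pump Abcb1a, the retinol dehydrogenase family gene Rdh16f2, and the methyltransferase Nnmt. The second held the complement components C6, C8a and C8b, the oxysterol hydroxylase Cyp7b1, the growth factor receptor Egfr and the repressor Bcl6. The remaining groups did not mainly follow Xist, with 5 of 16, 1 of 14, 0 of 8, 0 of 5 and 0 of 5 genes higher in each high-Xist liver. They are described with their pathways.

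Sterol synthesis varied as a block. The cells of the liver make cholesterol from acetyl-CoA through mevalonate and squalene, and SREBP-2 raises the genes of the whole route when sterols are scarce. All 17 measured genes had a 2-fold range, against 14.5% of the brighter genes. All 17 also did within the 4 low-Xist livers and without wt 6 and wt 7, against 7.45% and 10.0%. Every one of the 17 was lowest in wt 1 and second lowest in wt 4. Hmgcs1, which makes the precursor of mevalonate, had 11.80 in wt 1, 12.50 in wt 4 and 13.07 to 13.77 in the other 5 livers. Sqle, the squalene epoxidase, had 9.11, 10.19 and 11.42 to 11.84, and Mvd, the mevalonate diphosphate decarboxylase, had 5.79, 6.76 and 8.27 to 9.26. Fdps, Idi1, Nsdhl and Lss were lowest in the same 2 livers, with ranges of 9.60-fold, 5.53-fold, 6.17-fold and 5.44-fold. Insig1, which retains SREBP in the endoplasmic reticulum, also had its lowest value in wt 1 (9.43) and its highest in wt 6 (11.70).

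The members moved with little scatter. The median correlation over all 136 pairs of the list was 0.94. Hmgcs1 and Sqle, 1 of 20 pairs tested, had r = 0.97 and rho = 0.79 (n = 7 livers, exact permutation test, two-sided, adjusted p = 0.013 for r and 0.080 for rho). Without wt 1 and wt 4, the livers farthest from the median of Hmgcs1, r was 0.59, so the relation rests largely on these livers. The 5 genes most like Hmgcs1 among 1272 were Idi1 (r = 0.99), Nsdhl, Fdps, Cyp51 and Hsd17b7, all of the same route.

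Of 13 promoters of the list, 12 held the CCAAT box, the binding letters of the factor NF-Y, against 38.2% of 14452 measured genes. Promoters were RefSeq windows of 250 bases before and 50 after the start site, and only genes with a window were counted. The box was also in 12 of 17 clock, 9 of 15 fatty acid synthesis and 7 of 14 heat shock promoters. It was in 9 of 25 plasma protein, 2 of 7 male-biased, 2 of 10 female-biased and 1 of 20 acute phase promoters. The letters CCAAT were searched on both strands, where the other strand reads ATTGG. Those of Hmgcs1 and Mvd are shown because each holds several boxes. Capitals mark each box, the sequences run 5' to 3' along the gene and end at the base before the start site, and a match of letters is not evidence of binding. The Hmgcs1 stretch is chr13:119690101-119690350, plus strand, with boxes at -237, -176 and -45 from the start site. The Mvd stretch is chr8:122443423-122443672, minus strand, with boxes at -60 and -27 (GRCm38.p6, RefSeq).
Hmgcs1: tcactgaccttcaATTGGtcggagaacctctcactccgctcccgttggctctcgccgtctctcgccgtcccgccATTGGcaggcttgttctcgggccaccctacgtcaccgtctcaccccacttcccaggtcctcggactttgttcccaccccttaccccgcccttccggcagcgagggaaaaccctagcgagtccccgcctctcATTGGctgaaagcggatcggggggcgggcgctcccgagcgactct
Mvd: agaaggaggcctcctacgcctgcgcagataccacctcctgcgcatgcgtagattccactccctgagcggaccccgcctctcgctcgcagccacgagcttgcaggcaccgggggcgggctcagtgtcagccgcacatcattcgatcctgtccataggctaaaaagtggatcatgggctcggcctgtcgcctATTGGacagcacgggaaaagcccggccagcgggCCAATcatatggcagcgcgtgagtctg

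Fatty acid synthesis was low in the same 2 livers. Of 17 measured genes, 14 had a 2-fold range, against 14.5% of the brighter genes. The count was 13 without wt 6 and wt 7 and 13 within the 4 low-Xist livers, against 10.0% and 7.45%. Of the 17, 12 were lowest in wt 1. Scd1, which puts the double bond into palmitate and stearate, had 9.64 in wt 1, 12.54 in wt 4 and 13.34 to 14.29 elsewhere. Thrsp, a lipogenic protein induced by thyroid hormone and carbohydrate, had 9.15, 12.30 and 12.80 to 14.16. Fasn, the fatty acid synthase, had 9.08, 9.96 and 10.91 to 12.52, a 10.8-fold range. In all 3 genes wt 7 came next above wt 4, whereas it was the highest liver for 6 of the 17 cholesterol genes.

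Some genes of the list behaved otherwise. Pnpla3, a lipid droplet lipase family member, had 8.46, 9.81 and 9.80 in the high-Xist livers and 5.33 to 6.35 in the others, and 7 of the 17 genes were higher in each high-Xist liver, against 6.19% of the brighter genes. Srebf1, encoding the SREBP-1 factor, ranged only from 11.20 in wt 7 to 12.40 in wt 6, and Mlxipl, the carbohydrate response factor, from 11.10 to 11.91. Fasn and Acly, the ATP-citrate lyase that supplies its acetyl-CoA, had r = 0.99 (adjusted p = 0.0040, exact permutation test, n = 7) and 0.94 without wt 1 and wt 4. Thrsp and Pnpla3 had r = 0.71 (adjusted p = 0.044, exact permutation test) and rho = 1.00, so their livers had one order but not one slope. The call for r was lost without wt 2, wt 3, wt 5 or wt 6. Thrsp was also higher in each high-Xist liver, at 13.84 to 14.16 against 9.15 to 13.46. The correlation of this pair therefore includes the split between the Xist classes.

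The third group of variable genes joined both routes. It held Thrsp, Scd1, Acacb, Elovl6, Fasn and Acss2 of fatty acid synthesis and Mvd, Fdps, Sqle and Nsdhl of sterol synthesis. With them were Cyp7a1, the rate-limiting enzyme of bile acid synthesis, the ketone-using synthetase Aacs, the cyclin Ccnd1, the clock-controlled deadenylase Noct, the uridine phosphorylase Upp2 and the endothelial lipase Lipg. Cyp7a1 had 8.25 in wt 1, 8.48 in wt 4 and 11.02 to 11.96 in the others, and Ccnd1 had 7.70, 7.82 and 10.09 to 10.97. These values form separate clusters, so no correlation is given. Cdkn1a, the cell cycle inhibitor p21, had its highest values in these 2 livers, at 9.14 and 9.07 against 6.82 to 7.95. Cyp8b1, the other branch enzyme of bile acid synthesis, did not share the pattern, at 10.46 to 11.27 with wt 1 highest. Nr0b2, the bile acid induced repressor of Cyp7a1, had its highest values in wt 4 (10.89) and wt 1 (10.46), but 10.39 in wt 5. A 2-fold range was seen in 10 of 21 bile acid genes, and in 5 within the low-Xist livers, against 14.5% and 7.45% of the brighter genes. Of the 10, 2 were higher in each high-Xist liver and 3 in each low-Xist liver. Of all 21, these counts were 3 and 5, against 6.19% and 7.50% of the brighter genes.

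**Figure D3:**
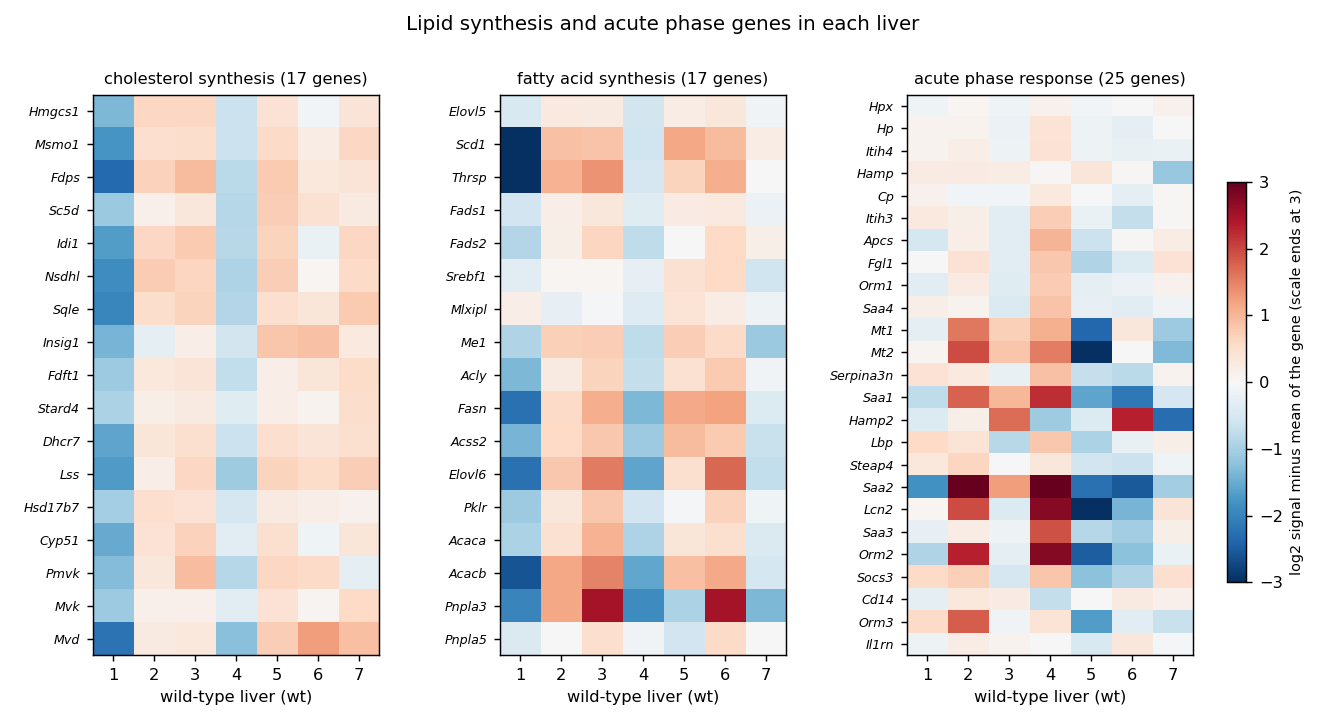
Log2 signal minus the mean of each gene over 7 livers (colour, ending at 3 units) for genes of cholesterol synthesis, fatty acid synthesis and the acute phase response (rows) in wt 1 to wt 7 (columns). The first 2 panels are darkest blue in wt 1 and next in wt 4, while many acute phase genes are reddest in wt 4, such as Saa2 at 14.04.

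Acute phase genes spread in another way. These encode plasma proteins that hepatocytes make in response to inflammation. Of 25 measured, 20 had a 2-fold range, against 14.5% of the brighter genes. Of these, 17 also had one within the 4 low-Xist livers, against 7.45%. Highest values fell in wt 4 for 16 of the 25, and lowest values in wt 5 for 10 and in wt 6 for 9. Saa2, a serum amyloid A, had 14.04 in wt 4, 13.82 in wt 2, 12.02 in wt 3 and 8.24 to 9.71 in the other 4, a 55.7-fold range. Lcn2, which binds bacterial iron carriers, had 13.28 in wt 4 and 12.51 in wt 2, a median of 10.61, and 7.21 in wt 5. Orm2, an orosomucoid, had 11.47 in wt 4, a median of 8.44 and 6.23 in wt 5. Saa1 and Saa2 are near-identical, and their r of 0.98 may come from shared probes.

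The abundant members of the list moved far less. Hp had 14.11 in wt 6, a median of 14.38 and 14.80 in wt 4, Itih4 had 13.97 to 14.62 and Apcs, serum amyloid P, had 12.73 to 14.37. All 3 were highest in wt 4. Hp and Lbp, the lipopolysaccharide-binding protein, had r = 0.82 (adjusted p = 0.040, exact permutation test, n = 7), but the call was lost on leaving out any liver other than wt 6. Saa2 and Orm2 had r = 0.93 (adjusted p = 0.012), and 0.66 without wt 2 and wt 4. Saa1 and Lcn2 had r = 0.84 (adjusted p = 0.039), a call lost without wt 1, wt 2, wt 4, wt 5 or wt 7. Genes most like Saa1, besides Saa2, were Ctcflos (r = 0.94), the phosphatidate phosphatase and coactivator Lpin1, Dcun1d3 and the zinc finger factor Zbtb16, the last ranging from 6.84 in wt 6 to 10.38 in wt 4.

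Metallothioneins and hepcidins did not follow the serum amyloids exactly. Mt2, a metal-binding protein induced by zinc and glucocorticoids, had 14.17 in wt 2, 13.75 in wt 4, a median of 12.29 and 9.14 in wt 5. Mt1 and Mt2 had r = 0.99 (adjusted p = 0.0040, exact permutation test) and 0.93 without wt 5 and wt 7, although they are close paralogs. A second, dimmer probe set of Mt1 (mean 6.57) had r = 0.35 with the one used. They fell into an 8-gene group with the lysophospholipid transporter Mfsd2a, Rad51b, the fatty acid hydroxylase Cyp4a14, Rab30, Orm3 and Pcp4l1. The group's median was lowest in wt 5 and wt 7 and highest in wt 2, where 6 of the 8 genes peaked. Cyp4a14 peaked in wt 1 and Rab30 in wt 3. Mfsd2a had 6.29 and 6.28 in wt 5 and wt 7, and 8.92 to 11.01 in the rest. Hamp, which encodes the iron hormone hepcidin, was at 13.84 to 14.19 in 6 livers and 12.68 in wt 7. Hamp2, its close copy, was more variable, from 9.26 in wt 7 to 13.88 in wt 6.

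Clock genes differed between livers in a pattern of opposites. In this oscillator ARNTL and CLOCK drive the Per, Cry and Nr1d genes and outputs such as Dbp, which then repress or follow them, so transcripts peak at different times of day. The hour at which tissue was taken was not given in the labels. Of 20 measured genes 15 had a 2-fold range, against 10.0% of all genes. Of the 17 among the brighter genes 14 did, also 14 without wt 6 and wt 7, and 11 within the 4 low-Xist livers. The shares of all brighter genes were 14.5%, 10.0% and 7.45%. Arntl had 8.28 and 8.48 in wt 1 and wt 5, 7.15 in wt 4 and 5.27 to 6.32 in the others. Clock had 8.44, 8.82 and 8.57 in the same 3 livers and 7.17 to 7.75 in the others. The activators were thus highest in wt 1, wt 4 and wt 5.

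The output gene Dbp, a transcription factor of the D-box family, had 9.36 and 9.09 in wt 1 and wt 5, 10.76 in wt 4 and 11.20 to 11.76 in the rest. Usp2, a deubiquitinase, had 7.36 and 6.22 in wt 1 and wt 5 and 8.77 to 9.66 elsewhere, a 10.9-fold range. Wee1, a mitotic kinase under clock control, had 5.79 and 5.74 there and 7.13 to 8.92 elsewhere. No r is given for Arntl and Dbp, whose values form separate clusters, but in wt 1 and wt 5 the first was highest and the second lowest. In all, 9 of the 17 genes were lowest in wt 5.

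Per3 had 7.37 and 7.41 in wt 1 and wt 5, a median of 8.16 and 9.54 in wt 3, and Per2 had 5.58 in wt 1, a median of 6.91 and 8.35 in wt 3. Both are repressors of the core loop, and their r was 0.87, or 0.79 without wt 1 and wt 3. Their rho was 0.89 (n = 7, exact permutation test, adjusted p = 0.016 for r and 0.041 for rho). Nr1d1, a repressor of Arntl, did not follow Dbp: it was highest in wt 7 (9.46) and lowest in wt 3 (7.26). Arntl and Nr1d1 had r = 0.34 (adjusted p = 0.50), which was not called and changed sign without wt 3. Nfil3, which competes for D-boxes, was lowest in wt 7 at 6.72 and highest in wt 4 at 9.17. Of these 17 clock genes, 6 were higher in each high-Xist liver and 1 in each low-Xist liver, against 6.19% and 7.50% of the brighter genes.

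Genes with a profile like Arntl among 1272 were Lrfn3 (r = 0.98), the coenzyme Q gene Coq8a (0.97), the mitochondrial unfoldase Clpx, Asap2 and the choline kinase Chka. Coq8a had 11.60 and 11.49 in wt 1 and wt 5 and 10.32 to 11.02 in the others. Of the 17 clock promoters with a window, 5 held the E-box CACGTG, against 9.02% of measured genes, and 2, those of Per1 and Per3, held the D-box TTATGNAA, against 2.37%. Over the other lists searched, the E-box share ran from 0% to 23.1% (cholesterol synthesis) and the D-box share from 0% to 10%. The ROR element AGGTCA was in 3, against 13.9%. Per3 is shown because it has 2 D-box matches, in capitals, at -205 and -158 from the start site. It covers chr4:151044666-151044915, minus strand (GRCm38.p6, RefSeq).
Per3: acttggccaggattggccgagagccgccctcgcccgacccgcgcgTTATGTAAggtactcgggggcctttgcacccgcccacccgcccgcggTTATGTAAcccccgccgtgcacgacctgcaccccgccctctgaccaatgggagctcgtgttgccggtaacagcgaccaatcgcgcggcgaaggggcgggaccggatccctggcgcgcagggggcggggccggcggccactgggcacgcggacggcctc

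**Figure D4:**
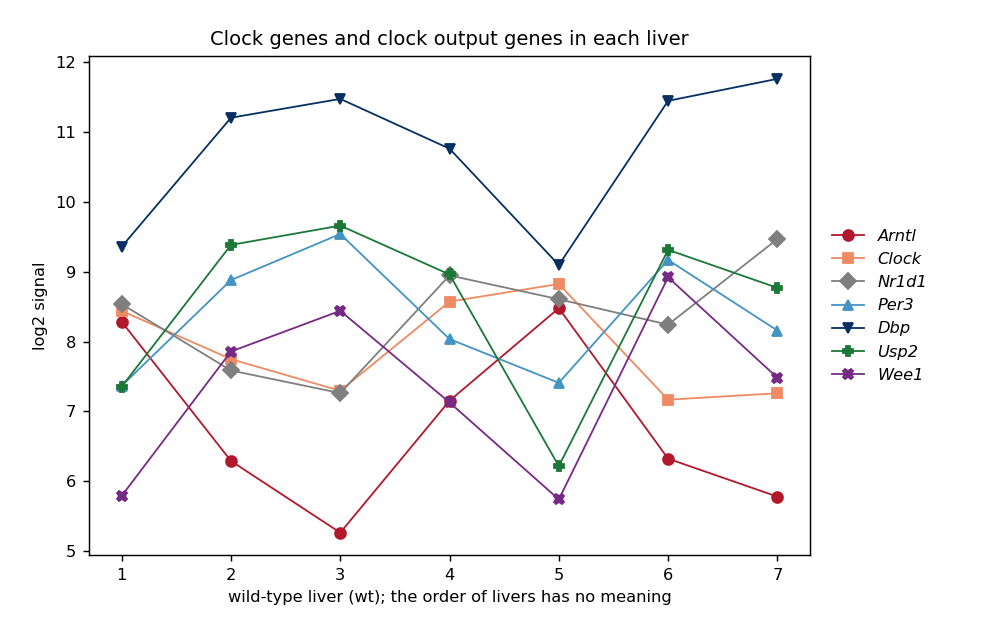
Log2 signal (y) of 7 clock and clock output genes in wt 1 to wt 7 (x), 1 point per liver. Arntl and Clock are high in wt 1 and wt 5, where Dbp, Usp2, Wee1 and Per3 are lowest.

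Heat shock chaperones mostly peaked in wt 3. These proteins refold damaged proteins, and the factor HSF1 induces them. Of 17 measured genes 9 had a 2-fold range, against 10.0% of all genes. Of the 15 among the brighter genes 8 had one, 7 without wt 6 and wt 7 and 4 within the low-Xist livers, against 14.5%, 10.0% and 7.45% of the brighter genes. Highest values were in wt 3 for 11 of these 15. Hspa1b, an inducible HSP70 near-identical to Hspa1a, had 10.26 in wt 3, a median of 8.44 and 6.93 in wt 2. Hsph1, its nucleotide exchange factor, had 10.56 in wt 3 and 9.07 in wt 1, and Hsp90aa1 had 11.64 in wt 3 and 10.53 in wt 7. Hspb1, a small heat shock protein, was the one of the 15 that peaked in wt 1 (9.95). Hspa1b and its partner Dnajb1 had r = 0.73 (adjusted p = 0.089), which was not called.

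The heat shock element letters GAANNTTC were in 9 of 14 promoters of the list, against 6.34% of measured genes. The Hspa1b stretch is shown because this gene varied most: chr17:34959239-34959488, minus strand (GRCm38.p6, RefSeq). The element is at -104, where the pattern GAANNTTC matches on both strands, and a CCAAT box is at -67, both in capitals.
Hspa1b: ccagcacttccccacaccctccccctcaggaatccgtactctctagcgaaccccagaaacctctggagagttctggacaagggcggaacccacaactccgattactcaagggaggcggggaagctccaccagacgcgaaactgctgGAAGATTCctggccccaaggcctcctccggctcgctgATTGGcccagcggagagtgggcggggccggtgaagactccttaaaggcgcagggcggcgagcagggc
Chaperones of the endoplasmic reticulum had a 2-fold range in 8 of 19 members among the brighter genes, 6 without wt 6 and wt 7 and 5 within the low-Xist livers, against 14.5%, 10.0% and 7.45% of the brighter genes. Of the 19, 10 were highest in wt 4 and 6 in wt 5. Hspa5, the chaperone BiP, had 12.29 in wt 2 and 13.31 in wt 5, and Creld2, a secreted chaperone, 8.81 and 10.84 in the same livers. Hspa5 and Pdia4 had r = -0.28 (adjusted p = 0.56). Of the other probe sets of Hspa5, one had r = 0.99 with the first and one r = 0.06.

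Interferon-regulated genes and macrophage markers both varied. Of 15 interferon response genes among the brighter genes, 12 had a 2-fold range over 7 livers and 7 without wt 6 and wt 7, against 14.5% and 10.0% of the brighter genes. Their highest values were in wt 6 for 7 genes, in wt 3 for 5 and in wt 7 for 3. Ifit1 had 8.19 in wt 6, a median of 6.86 and 5.80 in wt 4. A 14-gene group of variable genes held the guanylate-binding proteins Gbp2, Gbp2b, Gbp3, Gbp6 and Gbp8, the GTPases Igtp and Irgm2, the chemokine Cxcl9 and the antigen-presenting genes H2-Aa and H2-Ab1. These 10 are known targets of interferon-gamma, as noted after the group was seen. Its other 4 members were Cyp2g1, a cytochrome P450 that was higher in each high-Xist liver, the B cell adaptor Blnk, the proton pump subunit Atp6v0d2 and Calhm6. Gbp2 had 9.42 in wt 3, 8.41 and 8.11 in wt 6 and wt 7, and 6.01 in wt 4. Cxcl9 had 9.73 in wt 3 and 6.12 in wt 4. H2-Aa had 11.75 in wt 3, 11.17 in both wt 6 and wt 7, and 9.19 in wt 2.

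Kupffer cell and macrophage markers were all among the brighter genes, 12 of 12, and 10 had a 2-fold range, against 14.5% of the brighter genes. The count was 9 without wt 6 and wt 7 and 4 within the low-Xist livers, against 10.0% and 7.45%. Of the 12, 5 were higher in each high-Xist liver, against 6.19% of the brighter genes, and the median SD was 0.40 over 7 livers and 0.25 around the Xist class means. Their lowest values were in wt 1 for 5 and wt 4 for 7, and their highest in wt 3 for 8, wt 6 for 3 and wt 5 for 1. The summed signal of the list was 14.20 log2 units in wt 3, 14.07 in wt 6, and 13.27 and 13.23 in wt 1 and wt 4, and the part of these markers in the interferon result was not tested. In whole-liver RNA fewer cells of a type and less RNA per cell cannot be told apart. Clec4f, a lectin of Kupffer cells, had 11.46 in wt 3 and 10.36 in wt 4. Cd5l, a secreted macrophage survival protein, had 10.88 in wt 3 and 10.02 in wt 1. The pair had r = 0.93 and rho = 0.79 (n = 7, exact permutation test, adjusted p = 0.016 for r and 0.080 for rho). The call for r was lost without wt 3 or wt 4.

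Marco and Vsig4 had a negative r, whereas 64 of the 66 pairs of macrophage markers had r above 0 (median 0.75). Marco, a scavenger receptor, had 9.66 and 9.22 in wt 5 and wt 6 and 5.63 in wt 4, a 16.3-fold range, and its r with the complement receptor Vsig4 was -0.28 (adjusted p = 0.55, exact permutation test). A second probe set of Marco had r = 0.97 with the first. H2-Eb1, another antigen-presenting gene, also differed from H2-Aa: it had 9.93 and 10.01 in wt 6 and wt 7 and 6.53 to 8.54 in the others, with only 7.11 in wt 3. Among all brighter genes it had the widest gap of the 16 genes (0.176%) that lay at least 0.5 log2 units higher in wt 6 and wt 7 than in every other liver. The 29 genes (0.319%) lower by that much included Dnajc22, Tbx3, Peg3 and Apob.

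Few markers of other blood cells were among the brighter genes. Of 12 measured T and NK cell markers 3 were among the brighter genes, of 11 B and plasma cell markers 3, and of 11 neutrophil markers 2. Of these, 1, 2 and 2 had a 2-fold range, against 14.5% of the brighter genes, with too few members to compare. The neutrophil markers were S100a8 and S100a9, which form the calprotectin complex. S100a8 had 5.96 in wt 5, a median of 6.70 and 7.67 in wt 2, and the pair had r = 0.99 (adjusted p = 0.0040) and 0.98 without wt 2 and wt 5. Ighm, the IgM heavy chain, had 8.15 in wt 7 and 10.51 in wt 3. Of 10 endothelial markers among the brighter genes 1 had a 2-fold range, near the 14.5% of all brighter genes. Stab2, a sinusoidal scavenger receptor, had 8.73 to 9.22. Of 11 stellate cell and fibroblast markers among the brighter genes 4 had a 2-fold range, against the same 14.5%. Without wt 6 and wt 7 the count was 1, near the 10.0% of all brighter genes. Collagen transcripts were higher in wt 7: Col3a1 had 8.80, with 7.62 to 8.05 in the others, and Col1a1 had 6.45, with 5.17 to 5.62. Their r was 0.96 (adjusted p = 0.017, exact permutation test) and 0.60 without wt 4 and wt 7, and the call was lost without either of these.

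Markers of muscle, fat and pancreas, tissues that could have been taken with the liver, differed in signal. None of 7 skeletal muscle markers reached the brighter genes. Of 5 measured fat cell markers 3 did, and the median of the 5 means was 6.56. The fat cell hormones Adipoq and Lep had means of 2.86 and 3.48. Car3, a carbonic anhydrase on the fat cell list, was bright at 14.18. Of 10 pancreatic markers 2 were among the brighter genes, and Cela1, an elastase also made by liver, had 10.56. Cela2a, a pancreatic elastase, had 6.46 in wt 7 and 4.18 to 4.78 in the others.

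**Figure D5:**
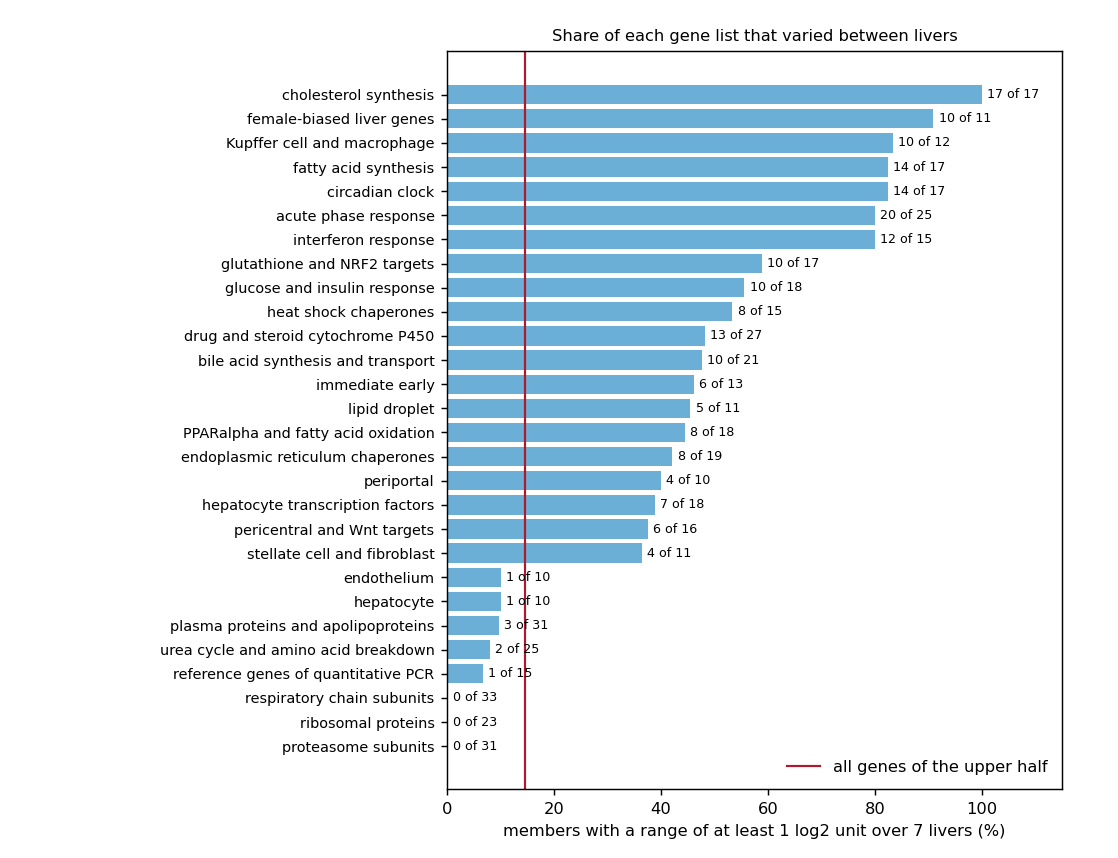
Share of members with a range of at least 1 log2 unit over the 7 livers (x, percent) for each gene list with at least 10 members among the brighter genes (rows); numbers give members with such a range of those among the brighter genes. The red line is the share of all brighter genes, 14.5%; cholesterol synthesis is at 17 of 17 and the respiratory chain, ribosomal and proteasome lists at 0.

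Fasting, fuel and zonation genes lay between the steady and the variable lists. Of 18 genes of glucose and insulin response 10 had a 2-fold range, and 7 without wt 6 and wt 7, against 14.5% and 10.0% of the brighter genes. Igfbp1, an insulin-repressed binding protein, had 9.52 in wt 1 and 6.31 and 6.22 in wt 2 and wt 5, and Igfbp2 had 12.90 in wt 7, 12.23 in wt 1 and 9.70 in wt 2. Pck1, the gluconeogenic carboxykinase, was lowest in wt 5 (11.30) and wt 6 (11.57) and highest in wt 4 (13.04). Igf1, the growth hormone target secreted by liver, was steady at 12.91 to 13.13. Of 18 brighter genes of fatty acid oxidation and PPARalpha 8 had a 2-fold range, 8 without wt 6 and wt 7 and 7 within the low-Xist livers. The shares of all brighter genes were 14.5%, 10.0% and 7.45%. The lowest values of the 18 were in wt 7 for 11 and in wt 5 for 6. Of the 18, 3 were lower in both wt 6 and wt 7 than in every other liver, near the 16.5% of all brighter genes. Cpt1a, the carnitine transferase that gates oxidation, ranged only from 11.60 to 12.13. Vnn1, a pantetheinase and PPARalpha target, had 4.58 in wt 5 and 8.23 to 10.36 in the others.

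Drug metabolism genes were mixed. Of 27 P450 genes among the brighter genes 13 had a 2-fold range, and 7 within the low-Xist livers, against 14.5% and 7.45% of the brighter genes. Of the 13, 7 were higher in each high-Xist liver, 4 were higher in each low-Xist liver, and Cyp3a13 and Cyp4a14 overlapped. Of all 27, 8 were higher in each high-Xist liver and 5 in each low-Xist liver, against 6.19% and 7.50% of the brighter genes. Some of the 27, such as Cyp3a44, were among the brighter genes only through the livers where they were high. Cyp2e1, an ethanol-metabolising enzyme around the central vein, had 14.04 to 14.24 and Cyp2c29 13.32 to 13.86, while Cyp3a11 had 11.72 in wt 6 and 12.76 to 13.86 elsewhere. Of 17 glutathione and NRF2 target genes 10 had a 2-fold range, but only 6 without wt 6 and wt 7, against 14.5% and 10.0% of the brighter genes. Of the 17, 10 were lowest in wt 4, such as Gsta2 at 6.47, with 7.26 to 9.49 in the others. Among pericentral and Wnt target genes 6 of 16 had a 2-fold range, and among periportal genes 4 of 10, against 14.5% of the brighter genes. Glul, the pericentral glutamine synthetase, ran from 10.74 to 11.32, Axin2 from 6.84 to 7.43, and Glul and Cyp2e1 had r = -0.49 (adjusted p = 0.31).

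Of 30 gene pairs listed, 24 were measured and 20 could be tested, as the values of 4 pairs formed separate clusters. By Pearson's r, 11 pairs were called at an adjusted p below 0.05, all positive, and by Spearman's rho 6 were. Mki67 and Top2a, proliferation genes at low signal, had r = 0.77 (adjusted p = 0.075), and the lipid droplet genes Cidec and Plin2 had r = 0.75 (adjusted p = 0.085). Cidea and Cidec had r = -0.63 (adjusted p = 0.15) and Cpt1a and Pdk4 had r = -0.50 (adjusted p = 0.31). With 7 livers the smallest two-sided exact p is 0.000397. Cidec was itself dim, at 3.69 to 4.35, and the genes most like it were Gadd45a (r = 0.95), Ap3m1, Tenm3, Mogat1 and Ddhd2. The genes most like Cd5l were Lrat (r = 0.97), Fam102a, Them7, Gimap8 and Folr2, and those most like Hspa1b were Tra2a (r = 0.87), Prss53, Cys1, Serpina12 and Creld2. Each was picked as the highest of 1272 or 1273 correlations, so these values carry no test.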

How the data were processed

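The authors deposited log2 signals of Affymetrix mouse 430 2.0 arrays, made per the labels' protocols from 5 ug of Trizol-extracted total RNA as biotinylated cRNA. The method that turned probe intensities into these log2 values is not given in the sources used here. The deposited wt arrays appear in 2 normalization runs; run 1 was used and run 2 was an alternative, differing by a median of -0.11 log2 units per array. Control probe sets (64) and the 932 with several symbols were left out, and 34945 with 1 symbol in the platform annotation gave 18193 genes, each by its brightest probe set. The titles number the 7 arrays as livers 1 to 7, taken here as 1 mouse each, which the labels do not state outright. Their number limits precision. The p-values give how often a re-pairing of the livers yields a correlation at least as large in size. This treats all livers as exchangeable, also across the Xist classes and the array control differences. Means, SDs, ranges and ranks were computed in Python 3.11.15 with numpy 2.4.6, pandas 2.3.3 and scipy 1.17.1, and plots in matplotlib 3.10.9. Predicted genes and immunoglobulin or T cell receptor segments (1899) were left out of rankings. Correlations had two-sided exact permutation tests with Benjamini-Hochberg adjustment over 20 pairs. The script was tested on simulated data. Named were the 20 brightest, 20 most variable and 15 most constant genes, pair members, the brightest and most variable 2 genes of each of 41 lists, the 5 genes most like each of 8 anchors, and group leaders; other genes were named after their values were seen. The lists name 698 genes, 615 measured. Members and lists were chosen with earlier results of these data known. Promoters came from RefSeq (GRCm38.p6). Alternatives were run 2, the mean of a gene's probe sets, quantile and median scaling, other measures of spread and average, no filter on dim genes, leaving out each liver, and, added after seeing the data, the 5 livers without Bacillus signal and the Xist classes.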

Additional observations from a re-analysis of the deposited data

Results flagged for a closer look

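Of 251 named genes, 12 had 1 liver far from the other 6 (gap over range above 0.568 for 7 samples); chance flags about 1 in 20 groups, and no cause was tested. In wt 7 there were 5: Tff3, a mucosal trefoil peptide, had 12.12 there and 5.41 to 5.97 in the others, Wfdc15b had 8.67 against 5.58 to 6.64, Cela2a 6.46 against 4.18 to 4.78, Col1a1 6.45 against 5.17 to 5.62 and Col3a1 8.80 against 7.62 to 8.05. In wt 1 there were 3: Thrsp at 9.15 against 12.30 to 14.16, Scd1 at 9.64 against 12.54 to 14.29 and Tat at 12.06 against 12.90 to 13.40. Alb had 15.0004 in wt 6 against 14.91 to 14.94, and Psmb4, a proteasome subunit, 11.45 in wt 6 against 11.57 to 11.66; both gaps are small in size. Vnn1 had 4.58 in wt 5 against 8.23 to 10.36, and Serpina12, the hormone-like serpin vaspin, 10.91 in wt 2 against 12.09 to 12.70. The SD of Tff3 was 2.42 over 7 livers and 0.21 without wt 7, so its place among the most variable genes rests on that liver.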

How the results depend on the processing

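No paired analysis was possible because a single group was described and no contrast between groups was made. The 20 brightest genes shared 18 to 20 members with the ranking under every alternative run, centring not included, since it changes no rank. The 20 most variable shared 17 to 20 members except under the median absolute deviation (10) and around the Xist class means (2), and 18 to 19 on leaving out 1 liver. The 15 most constant shared 8 in normalization run 2, 7 after quantile normalization, 6 without wt 6 and wt 7, 3 by the median absolute deviation and 7 to 11 on leaving out 1 liver. The count of genes with a 2-fold range was 678 in the 4 low-Xist livers and 1114 to 1210 on leaving out 1 liver. Of the 11 called pairs, 6 to 10 remained in number on leaving out 1 liver, 6 without wt 4, and 5 kept their call in all 7 omissions (Per2 with Per3, Saa2 with Orm2, Fasn with Acly, S100a8 with S100a9, Mt1 with Mt2). Without wt 6 and wt 7 none (0) was called by the exact test, where the smallest possible p is 0.0167 and the lowest adjusted p was 0.056; 8 pairs had an unadjusted p below 0.05, and r of the 11 was 0.73 to 1.00. Arntl with Nr1d1 had r from -0.0293 (without wt 3) to 0.79 on leaving out 1 liver, Glul with Cyp2e1 from -0.76 to 0.10 (without wt 1) and Hspa5 with Pdia4 from -0.48 to 0.79 (without wt 5), changes of sign whose cause was not tested. Of 251 mean levels, 16 moved by more than 1 SD in run 2 and 85 with the mean of a gene's probe sets. Among the second probe sets compared for named genes, 27 of the 35 with means above 6.49 had r above 0.9 with the first. Dimmer second probe sets were not in this count, and their r ran from -0.47 (Hsd17b6) to 0.997 (Xist). For genes with a 2-fold range, named or not, 426 of 668 second probe sets had r above 0.9.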

Other observations

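A group of 5 variable genes was highest in wt 7. It held Tff3, the adhesion protein Cdh1, the lipoprotein lipase Lpl, the sulfotransferase Sult5a1 and Wfdc15b. Lpl had 11.02 in wt 7, against 7.41 to 9.02 in the other 6 livers. Sult5a1 had 10.97 in wt 7, 10.11 in wt 5 and at most 9.71 in the rest. Cdh1, which marks periportal hepatocytes, had 8.86 in wt 7 and 8.54 in wt 5, against 5.80 to 7.10 in the other 5, so these 2 livers stood together for that gene. G0s2, an inhibitor of fat breakdown, had its lowest value in wt 7, at 7.68, against 9.87 to 11.98.

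Alas2, the erythroid heme synthase, had 11.15 in wt 4, 10.42 in wt 1 and 8.15 to 8.87 in the other 5 livers, the same 2 livers in which cholesterol genes were lowest. Of 5 measured erythroid markers only 2 were among the brighter genes. Dct, the melanocyte enzyme dopachrome tautomerase, had 11.99 and 11.50 in wt 2 and wt 3 and 5.69 in wt 6, a 78.6-fold range. Prtn3, a neutrophil protease, had 9.50, 8.63 and 8.53 in wt 7, wt 2 and wt 4, and 5.25 to 5.83 in the other 4 livers, an order that S100a8 did not share. Rgs16, a feeding- and clock-regulated G protein regulator, had 4.16 in wt 5 and 6.19 to 8.48 elsewhere. Hsd17b6, a steroid dehydrogenase, had 7.50 in wt 5, a median of 11.15 and 12.13 in wt 1.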
